A study of Homo sapiens with 12 samples.

Results

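Immediate early response transcripts, 10 by list, were followed in K562 cells treated with nilotinib, imatinib or the solvent DMSO: EGR1, EGR2 and EGR3, the AP-1 genes FOS, FOSL1, JUN and JUNB, the early response genes IER2 and IER3, and the activation antigen CD69. They were chosen by name, and all probe sets (groups of probes that read 1 transcript) whose platform annotation named a listed gene were taken. Of the 10 listed genes, 9 had a probe set, 13 probe sets in all of 22277 on the array. The annotation table named none for EGR2, which is not analysed here. After a filter on low values, 8 of the 9 genes remained among 8021 genes tested. FOS was dropped, as was 1 of the 4 probe sets of JUN. Near the filter, at a mean of 6.59 on the log2 scale, EGR3 lay just inside with a mean of 6.70, and FOS lay outside with 5.17.

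K562 is a single established human line from a chronic myeloid leukaemia, and all groups carry its BCR-ABL1 fusion kinase. The groups were 0.05 µM nilotinib (AMN107), 0.5 µM imatinib (STI571) and DMSO, with 4 Affymetrix U133A 2.0 arrays each and an exposure of 24 h. Both drugs inhibit the ABL kinase, and nilotinib was designed from the structure of imatinib. The labels call each dose its drug's IC50, and no other dose or time was measured. The labels name no separate cultures within a group, so every p-value rests on the spread between arrays, which may be technical. In bulk RNA, fewer cells expressing a gene and less RNA per cell cannot be told apart.

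Immediate early genes are transcribed within minutes of a stimulus, without the need for new protein. Serum response factor, bound with ETS family cofactors at CArG boxes, carries the ERK signal to many of their promoters, and CREB acts on several through cyclic AMP response elements (CRE). EGR1 is a zinc finger transcription factor and FOS and JUN family proteins pair as AP-1. CD69 is a C-type lectin-like membrane protein best known as an early surface marker of activated lymphocytes. In cells with BCR-ABL1, the kinase feeds into RAS, ERK and STAT5 signalling.

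The 250 bases before the transcription start of 4 of these genes are printed because their transcripts differed in direction on the arrays, as described further on. EGR1 and IER2 were lower with both drugs, JUN was higher in its brightest probe set, and JUNB passed no test without further scaling of the arrays. They are RefSeq sequences on GRCh38.p14, from 5′ to 3′ along the gene. EGR1 lies at chr5:138465229-138465478 on the plus strand, IER2 at chr19:13150161-13150410 on the plus strand, JUN at chr1:58784048-58784297 on the minus strand and JUNB at chr19:12791236-12791485 on the plus strand. Capitals mark CArG boxes, CRE half-sites (TGACG) and ETS cores (CGGAA), on either strand.
EGR1: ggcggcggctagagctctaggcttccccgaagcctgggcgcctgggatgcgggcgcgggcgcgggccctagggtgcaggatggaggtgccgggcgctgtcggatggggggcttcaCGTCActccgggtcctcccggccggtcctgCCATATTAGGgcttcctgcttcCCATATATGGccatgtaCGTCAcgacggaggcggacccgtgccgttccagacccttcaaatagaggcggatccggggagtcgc
IER2: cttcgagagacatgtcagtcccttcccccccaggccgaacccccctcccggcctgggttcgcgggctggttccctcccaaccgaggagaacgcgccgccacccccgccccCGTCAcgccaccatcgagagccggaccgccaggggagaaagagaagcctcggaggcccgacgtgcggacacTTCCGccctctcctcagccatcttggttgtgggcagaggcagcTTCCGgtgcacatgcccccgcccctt
JUN: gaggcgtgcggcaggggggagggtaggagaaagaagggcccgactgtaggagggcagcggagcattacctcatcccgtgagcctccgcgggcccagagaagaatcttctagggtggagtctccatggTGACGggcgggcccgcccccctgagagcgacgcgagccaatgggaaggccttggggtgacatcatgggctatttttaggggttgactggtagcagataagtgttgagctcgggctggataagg
JUNB: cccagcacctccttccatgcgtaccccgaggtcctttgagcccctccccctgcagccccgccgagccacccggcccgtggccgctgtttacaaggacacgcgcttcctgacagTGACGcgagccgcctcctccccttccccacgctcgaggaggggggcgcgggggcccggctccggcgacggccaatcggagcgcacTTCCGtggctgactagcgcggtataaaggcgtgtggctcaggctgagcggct

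The promoter table held windows for 6 of the 10 genes, EGR1, EGR2, FOS, JUN, JUNB and IER2. EGR1 had 2 CArG boxes, the first from base 105 to base 96 before the start and the second from base 83 to base 74. It also had 2 CRE half-sites, 1 EGR site (GCGNGGGCG) and 1 GAS element (TTCNNNGAA), the motif bound by STAT factors. Of 35116 windows of the same length in the table, 1.16% held a CArG box, 21.22% a CRE half-site, 8.41% an EGR site and 6.57% a GAS element. The only other CArG box in the windows of the 6 genes was in 1 of the 3 windows of EGR2. Bases further than 250 before the start were not searched, so any of these genes may hold CArG boxes there. Each of the 6 genes had at least 1 CRE half-site. ETS cores in the form searched, CGGAA, stood in the windows of EGR2 (1), JUNB (1) and IER2 (2), and in 30.3% of all windows. The shorter form GGAA was not searched for or marked. The printed EGR1 window holds it between its CArG boxes, as ttcc on the strand shown, so windows without CGGAA may hold other ETS cores. A TATA box (TATAAA) stood in FOS and JUNB, and in 10.72% of all windows. No AP-1 site of the form TGANTCA was in these windows, and 6.57% of all windows had one. Longer forms were not searched for, and the printed JUN window holds at least 1, tgacatca. These matches are letters in a window and were not tested as binding sites.

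**Figure D1:**
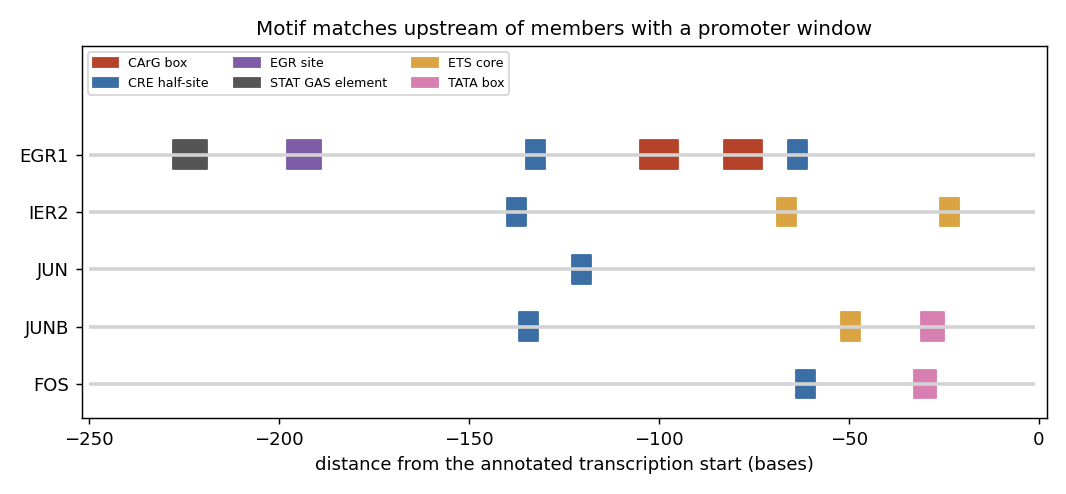
Positions of motif matches in the 250 bases before the start of EGR1, IER2, JUN, JUNB and FOS, on an axis of bases from the annotated transcription start, with 1 colour per motif. The 2 CArG boxes of EGR1, from base 105 to 96 and from base 83 to 74 before the start, are the only ones drawn, and each gene carries at least 1 CRE half-site.

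The values are MAS5 signals on a linear scale, and log2 differences are of log2(signal + 16), which understates differences of dim genes. Each array had a trimmed mean close to 500.1, but the bulk of probe sets was not level. The median signal was 179 ± 12.1 on nilotinib arrays, 142 ± 8.72 on imatinib arrays and 119 ± 2.15 on DMSO arrays (SD, n = 4 each). The exact permutation test gave p = 0.0286 for each drug against DMSO, the smallest p that 4 arrays against 4 can give. The brightest of the bacterial control probe sets, which stand for no K562 transcript, had a mean signal of 170 ± 67.5 on nilotinib arrays, 106 ± 12.1 on imatinib arrays and 58.9 ± 18.7 on DMSO arrays (SD, n = 4 each). Among tested genes, the median log2 difference from DMSO was 0.15 with nilotinib and 0.09 with imatinib. With each array centred on its median, these became -0.37 and -0.13. The ratio of 3′ to 5′ actin signal, a measure of RNA or cDNA length, was above 3.5 on 4 arrays, nilotinib 1 and 2 and imatinib 5 and 6. Without them, the log2 differences from DMSO were -4.32 with nilotinib and -4.46 with imatinib for CD69, and -3.35 and -3.89 for EGR1. Other values without them are given where they change a call. A control probe set for large-subunit ribosomal RNA averaged 24015 ± 2137 on nilotinib arrays and 20453 ± 1241 on imatinib arrays, against 5431 ± 135 on DMSO arrays (SD, n = 4 each). One for small-subunit ribosomal RNA averaged 9035 ± 972 with nilotinib and 5950 ± 934 with imatinib, against 3293 ± 329 with DMSO. Neither control overlapped between drug and DMSO arrays (exact permutation p = 0.0286 for each drug), so both move with every difference from DMSO given here, and their part in these differences was not tested. Of 8 K562 marker genes, 7 were measured and all 7 passed the filter, with summed signals of 72886 to 77553 on nilotinib arrays, 63575 to 70283 on imatinib arrays and 44021 to 49433 on DMSO arrays.

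CD69 and EGR1 were far lower with both drugs, IER3 and IER2 were lower by less, and JUN was higher in its brightest probe set. The other JUN probe sets, given further on, were not called with imatinib. JUNB, FOSL1 and EGR3 were not called against DMSO without further scaling of the arrays. With other scalings, given further on, FOSL1 and JUNB were called lower with nilotinib. With nilotinib, 4 of 8 tested genes fell and 1 rose, beside 23.5% lower and 34.7% higher among all 8021 genes. With imatinib, 4 of 8 fell and 1 rose, beside 17.3% lower and 22.0% higher among all genes. The call rule was an adjusted p under 0.05 in limma, and 58.2% of all genes met it with nilotinib and 39.4% with imatinib. The 8 genes are too few to read a difference from those shares. EGR1, whose signal stayed above the brightest bacterial control on every array, ranked 3 from the lowest log2 difference of 8021 genes with nilotinib and 2 with imatinib. CD69 is given no rank, since most of its drug-array signals lay at or below that control. The median over the 8 genes was -0.56 with nilotinib and -0.55 with imatinib. Both comparisons use the same DMSO arrays.

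**Figure D2:**
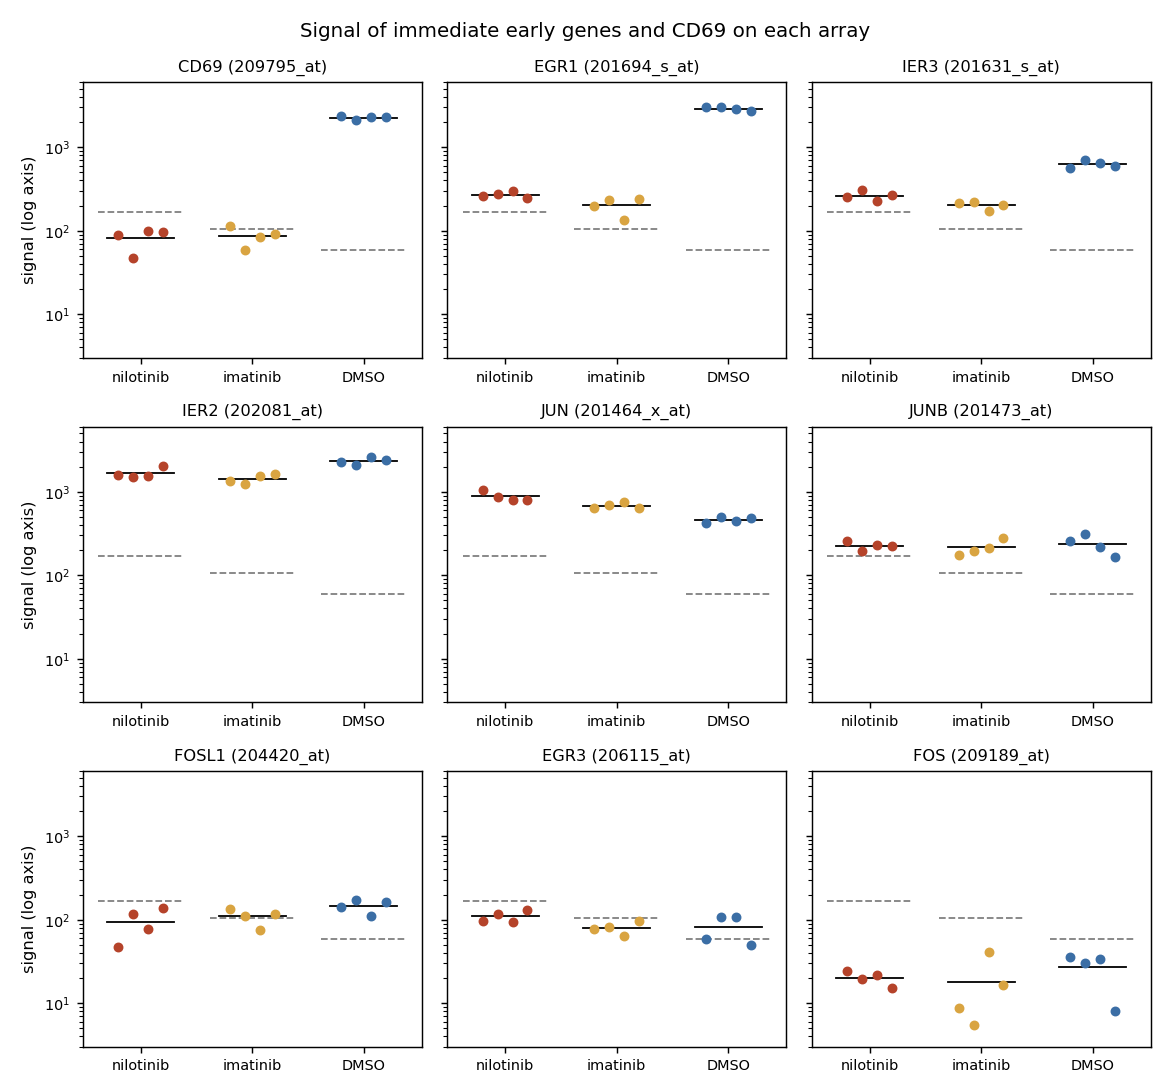
Signal (log axis) of each measured gene on every array, by group, with nilotinib at the left, imatinib in the middle and DMSO at the right. Points are arrays, the black line is the group mean and the dashed grey line the group mean of the brightest bacterial control. CD69 on drug arrays (46.9 to 113) lies at or below that dashed line apart from 1 imatinib array, against 2113 to 2390 on DMSO arrays.

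EGR1 was read by 2 probe sets. Probe set 201694_s_at had signals of 262, 275, 296 and 246 on nilotinib arrays, 196, 236, 136 and 238 on imatinib arrays, and 3015, 3007, 2862 and 2731 on DMSO arrays. Every drug array was below every DMSO array. Counting both directions, drug and DMSO arrays were apart in this way for 5 of 8 genes with each drug, beside 50.7% of all genes with nilotinib and 39.1% with imatinib. The group means were 270 ± 21.1 with nilotinib, 201 ± 47.6 with imatinib and 2904 ± 135 with DMSO (SD, n = 4 each). EGR1 fell with both drugs, with log2 differences of -3.36 ± 0.14 (SE) with nilotinib and -3.78 ± 0.14 with imatinib (limma, adjusted p = 3.52e-13 and 1.16e-13). The mean signal was thus 10.8-fold lower with nilotinib and 14.4-fold lower with imatinib. Within an array, the probe set stood on average at percentile 59.5 of all probe sets with nilotinib and 56.0 with imatinib, against 94.5 with DMSO. All 12 arrays lay above their own brightest bacterial control.

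The other EGR1 probe set, 201693_s_at, had signals of 290, 304, 190 and 253 with nilotinib, 144, 172, 148 and 124 with imatinib, and 875, 778, 749 and 847 with DMSO. It too had no overlap between drug and DMSO arrays. Its log2 differences were nearer 0, at -1.61 ± 0.16 with nilotinib and -2.35 ± 0.16 with imatinib (limma over all probe sets, adjusted p = 4.21e-07 and 5.41e-09). In that fit, 5 of the 13 probe sets fell and 2 rose with nilotinib, beside 13.0% lower, 28.6% higher and 41.5% in all among 22215 probe sets. With imatinib, 5 fell and 1 rose, beside 8.88% lower, 11.5% higher and 20.4% in all. Both probe sets of EGR1 kept their call against DMSO under every alternative processing tried.

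EGR3, a relative of EGR1 that binds the same kind of site, was dim. Its signals were 97.2, 118, 94.1 and 131 with nilotinib, 76.6, 82.6, 63.2 and 97.0 with imatinib, and 58.1, 109, 109 and 49.7 with DMSO. The groups overlapped. The log2 difference was 0.42 ± 0.32 with nilotinib and 0.02 ± 0.32 with imatinib (limma, adjusted p = 0.262 and 0.962). With quantile normalization the signs turned, to -0.16 and -0.21.

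Lists of other genes around the EGR factors and their upstream pathway were set beside the members. Of all 8021 genes, 34.7% rose and 23.5% fell with nilotinib, and 22.0% rose and 17.3% fell with imatinib. The counts called in this list and in every list further on stand beside those shares and were not tested against them. Some genes stand in more than 1 list, so the counts of different lists are not independent. Among 18 tested immediate early genes outside the 10 listed, 6 rose and 7 fell with nilotinib, and 5 rose and 6 fell with imatinib. Their median log2 difference was 0.05 with nilotinib and 0.02 with imatinib, against 0.15 and 0.09 over all genes. KLF10, a zinc finger transcriptional repressor induced by TGF-beta, averaged a signal of 2364 ± 262 with nilotinib, 2020 ± 137 with imatinib and 284.6 ± 38.5 with DMSO (SD, n = 4 each). It rose by 2.99 and 2.77 on the log2 scale (limma, adjusted p = 2.67e-14 and 1.16e-13). GADD45B, a stress-induced regulator of kinase signalling, rose by 1.82 and 1.01, with 3 of its 4 probe sets called with nilotinib and 1 of 4 with imatinib. GADD45B was dim with DMSO (mean 72.1), and exceeded the brightest bacterial control on 4 of 4 nilotinib, 3 of 4 imatinib and 3 of 4 DMSO arrays. MYC, which drives growth and ribosome production, fell, with log2 differences of -1.91 and -1.25. MAFF, also in this list, fell as well and is described with the AP-1 partners further on. MAFF and ATF3 are counted again there, EGR4 among the EGR partners and MYC among the lymphocyte activation genes.

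Among 10 tested ERK feedback genes, transcripts whose products damp or report ERK activity, 6 fell and 1 rose with each drug, with a median of -0.57 with nilotinib and -0.89 with imatinib, and of -1.09 and -1.12 with median centring. ETV5, an ETS factor induced by ERK, averaged 142 ± 59.8 with nilotinib, 111 ± 35.2 with imatinib and 743 ± 39.5 with DMSO, and all 3 of its probe sets fell with each drug. Its signal was above the brightest bacterial control on 3 of 4 nilotinib arrays and 1 of 4 imatinib arrays, against 4 of 4 DMSO arrays. The RAS pathway inhibitors SPRY2 (-1.26 with nilotinib and -0.93 with imatinib), SPRY4 (-0.67 and -1.25) and SPRED2 (-1.22 and -0.95, in 1 of 3 probe sets) fell too. The list's direction was known from earlier results of these data, so it is a description here.

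Among 7 tested EGR partners and corepressors, 4 rose and 1 fell with nilotinib, and 2 rose and 1 fell with imatinib, with medians of 0.38 and 0.10. The one that fell was WT1, a zinc finger factor whose sites overlap those of EGR1: it averaged 356 ± 60.5 with nilotinib, 389 ± 28.0 with imatinib and 1649 ± 173 with DMSO, and both of its probe sets fell. EGR4, another EGR family member, rose by 1.33 with nilotinib and 0.68 with imatinib in the gene fit. Of its 2 probe sets tested one by one, however, 1 was called with nilotinib and 0 with imatinib. EGR4 was dim with DMSO (mean 94.9), and exceeded the brightest bacterial control on 4 of 4 nilotinib, 3 of 4 imatinib and 4 of 4 DMSO arrays. CREBBP, a histone acetyltransferase and coactivator, rose by 0.83 and 0.54, in 1 of 2 probe sets. NAB1, a corepressor of EGR factors, rose by 0.40 with nilotinib in 2 of 3 probe sets and had a difference of 0.06 with imatinib (adjusted p = 0.705). Of 6 tested genes for SRF and its cofactors, 2 rose and 1 fell with each drug. ELK1, the ETS cofactor that ERK phosphorylates, rose by 1.38 and 0.97, and ELK3, a relative that can repress SRF targets, fell in the gene fit (-0.999 and -0.66), while its other probe set was called higher with nilotinib. MRTFB, an actin-responsive cofactor of SRF, rose by 0.54 and 0.49. Of 15 tested kinases and adaptors between BCR-ABL1 and ERK or JNK, 6 rose and 3 fell with nilotinib, and 4 rose and 1 fell with imatinib. GAB2, an adaptor that links BCR-ABL1 to RAS signalling, fell (-1.67 and -1.37, SE 0.40 for each). It averaged 417 ± 254 with nilotinib, 415 ± 97.7 with imatinib and 1078 ± 90.8 with DMSO (SD, n = 4 each). Its signal exceeded the brightest bacterial control on 3 of 4 nilotinib arrays and on 4 of 4 in the other groups. ARAF, a RAF kinase upstream of ERK (0.41 and 0.52), and RPS6KA1, a kinase that ERK activates (0.50 and 0.49), rose with both drugs. SOS2, an exchange factor for RAS, rose by 0.48 with nilotinib in 1 of 5 probe sets and had a difference of 0.25 with imatinib (adjusted p = 0.0789). With median centring, the medians of the immediate early list were -0.48 with nilotinib and -0.20 with imatinib, those of the EGR partners -0.14 and -0.13, and those of the kinases and adaptors, which were 0.09 and 0.14, became -0.43 and -0.09, so the direction of these lists depends on the scaling. The SRF list had a median of 0.10 with nilotinib and -0.03 with imatinib, and with median centring that for nilotinib was -0.42.

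IER3 encodes a small membrane-anchored protein that modulates ERK signalling and cell survival. Its signals were 251, 306, 227 and 271 with nilotinib, 213, 224, 171 and 202 with imatinib, and 559, 695, 652 and 595 with DMSO. No drug array reached the lowest DMSO array. IER3 fell, with log2 differences of -1.20 ± 0.15 with nilotinib and -1.55 ± 0.15 with imatinib (limma, adjusted p = 1.15e-06 and 5.96e-08), which placed it at ranks 268 and 76 from the lowest of 8021 genes.

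IER2, a nuclear protein with a role in transcription, stayed bright in every group. Its signals were 1586, 1483, 1525 and 2053 with nilotinib, 1352, 1230, 1543 and 1623 with imatinib, and 2252, 2077, 2608 and 2426 with DMSO. The groups did not overlap, although nilotinib array 4 came close to DMSO array 10. IER2 fell, with log2 differences of -0.50 ± 0.11 with nilotinib and -0.70 ± 0.11 with imatinib (limma, adjusted p = 0.000724 and 3.64e-05). Its promoter, printed above, holds 2 ETS cores and a CRE half-site and no CArG box in these letters.

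JUN, the AP-1 subunit that JNK phosphorylates, moved the other way, and its 4 probe sets did not give one answer. The brightest, 201464_x_at, had signals of 1059, 857, 798 and 803 with nilotinib, 631, 687, 763 and 647 with imatinib, and 423, 498, 444 and 483 with DMSO. All drug arrays were above all DMSO arrays. It rose by 0.90 ± 0.11 with nilotinib and by 0.55 ± 0.11 with imatinib (limma, adjusted p = 1.70e-06 and 0.000664). With median centring the values were 0.38 and 0.32 (adjusted p = 0.0138 and 0.0499). In Affymetrix names, the ending _x_at marks probes that can also match other sequences.

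Probe set 213281_at of JUN had signals of 225, 308, 120 and 127 with nilotinib, 132, 148, 126 and 98.7 with imatinib, and 70.4, 115, 97.7 and 103 with DMSO. Nilotinib arrays lay above all DMSO arrays and imatinib arrays overlapped them. The log2 difference was 0.83 ± 0.31 with nilotinib (limma over all probe sets, adjusted p = 0.0401) and 0.34 ± 0.31 with imatinib (adjusted p = 0.508). The nilotinib call was kept under 9 of 21 alternatives, and without the arrays of high actin ratio the difference was 0.32. Probe set 201466_s_at ranged from 58.8 to 186 with nilotinib, 129 to 147 with imatinib and 58.4 to 132 with DMSO, and was not called (adjusted p = 0.942 and 0.486). Probe set 201465_s_at lay between 12.2 and 34.0 on all arrays, below the brightest bacterial control on each, and was not called (adjusted p = 0.194 and 0.455).

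**Figure D3:**
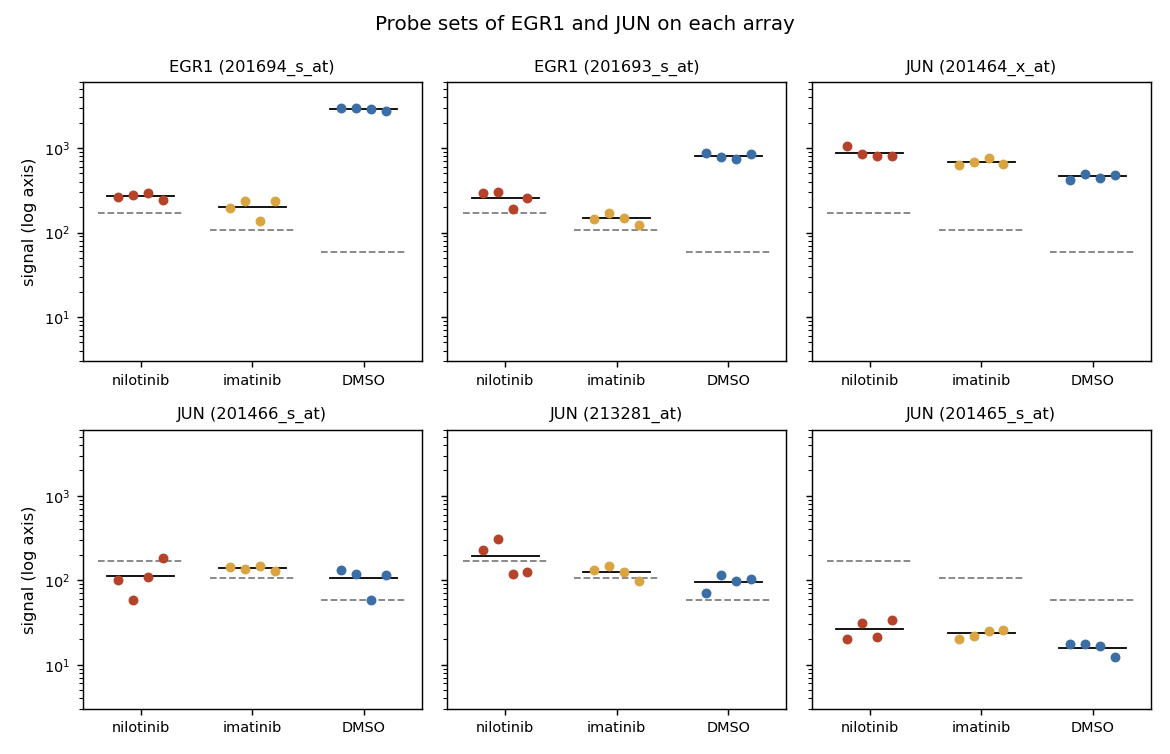
Signal (log axis) of the 2 probe sets of EGR1 and the 4 of JUN on each array, with nilotinib at the left, imatinib in the middle and DMSO at the right. Points are arrays, black lines group means and dashed grey lines the group mean of the brightest bacterial control: both EGR1 probe sets are lower on drug arrays, while of the JUN probe sets 201464_x_at alone lies well above that control in all groups.

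JUNB, an AP-1 subunit that often restrains JUN, had signals of 256, 198, 228 and 227 with nilotinib, 175, 193, 213 and 281 with imatinib, and 256, 316, 220 and 165 with DMSO. The groups overlapped fully. The log2 difference was -0.04 (95% interval -0.47 to 0.39) with nilotinib and -0.13 (-0.56 to 0.30) with imatinib (limma, adjusted p = 0.877 and 0.661). With median centring, the nilotinib value was -0.56 and passed the test (adjusted p = 0.0260).

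FOSL1, also called FRA1, is a FOS family partner that ERK stabilizes. Its signals were 46.5, 118, 76.7 and 138 with nilotinib, 135, 110, 74.8 and 118 with imatinib, and 144, 173, 111 and 162 with DMSO. The groups overlapped. The log2 difference was -0.63 ± 0.31 with nilotinib and -0.39 ± 0.31 with imatinib (limma, adjusted p = 0.0886 and 0.341). FOSL1 with nilotinib passed the test with quantile normalization (-1.15), median centring (-1.15) and cyclic loess (-1.20), and without nilotinib array 4 (-0.81).

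FOS itself did not stand above background. Its signals were 24.3, 19.8, 21.7 and 15.4 with nilotinib, 8.86, 5.44, 41.6 and 16.5 with imatinib, and 35.7, 30.1, 33.4 and 8.02 with DMSO. No array reached its own brightest bacterial control. Among 15 tested AP-1 partners and relatives, 5 rose and 6 fell with nilotinib, and 3 rose and 8 fell with imatinib, with medians of -0.11 and -0.29, and of -0.63 and -0.51 with median centring. MAFF, a small MAF factor that pairs with other leucine zipper proteins, fell in the gene fit (-2.09 and -2.50), in 1 of its 2 probe sets. It was above the brightest bacterial control on 0 of 4 arrays with either drug, as was PLAU, described further on, and BATF was above it on 1 of 4 arrays with either drug, so the differences of these genes have no exact size. ATF3, a stress-induced partner of JUN, fell (-0.95 and -1.68). BATF, a partner of JUN in lymphocytes, fell (-1.08 and -1.37), as did NFE2L2, the regulator of antioxidant genes (-1.18 and -1.20). Among 11 tested AP-1 and EGR target genes, 3 fell and 1 rose with nilotinib, and 4 fell and 1 rose with imatinib, with medians of -0.11 and -0.14. Those medians were -0.63 and -0.37 with median centring, and with 1 array left out the nilotinib median ran from -0.18 to 0.065. VEGFA, a growth factor for blood vessels, averaged 1156 ± 115 with nilotinib, 944 ± 86.3 with imatinib and 2616 ± 285 with DMSO, and 2 of its 4 probe sets fell with each drug. PLAU, the urokinase protease, fell (-1.86 and -1.51) in 1 of 2 probe sets, and FN1, fibronectin, fell (-1.35 and -0.98) in 4 of 6. THBS1, thrombospondin, rose by 0.95 with nilotinib in 1 of 5 probe sets and had a difference of 0.17 with imatinib (adjusted p = 0.721). THBS1 was dim with DMSO (mean 99.2), and exceeded the brightest bacterial control on 3 of 4 nilotinib, 2 of 4 imatinib and 4 of 4 DMSO arrays.

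CD69 had signals of 88.0, 46.9, 99.6 and 97.3 with nilotinib, 113, 58.4, 84.6 and 91.8 with imatinib, and 2390, 2113, 2299 and 2285 with DMSO. All drug arrays lay far below all DMSO arrays. The group means were 82.9 ± 24.6 with nilotinib, 87.0 ± 22.7 with imatinib and 2272 ± 116 with DMSO (SD, n = 4 each), and CD69 exceeded the brightest bacterial control on 0 of 4 nilotinib arrays and 1 of 4 imatinib arrays, against 4 of 4 DMSO arrays. With that control in place of any lower CD69 signal on a drug array, CD69 was at least 14.1-fold lower with nilotinib and at least 21.5-fold lower with imatinib (ratio of geometric means). These bounds differ with the control level of each group and do not order the drugs. CD69 fell, with log2 differences of -4.57 ± 0.21 with nilotinib and -4.50 ± 0.21 with imatinib (limma, adjusted p = 9.24e-13 and 1.91e-12). The fitted log2 difference moves with the treatment of dim signals. It was -4.01 with nilotinib and -3.96 with imatinib when 64 was added to the signal, and -4.82 and -4.73 when 1 was added. Within arrays the probe set stood on average at percentile 32.8 with nilotinib and 39.2 with imatinib, against 92.8 with DMSO.

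Other genes of lymphocyte activation were set beside CD69. Of 8 tested lymphocyte activation genes other than CD69, 5 rose and 2 fell with nilotinib, and 3 rose and 2 fell with imatinib. The shares of all genes were 34.7% higher and 23.5% lower with nilotinib, and 22.0% and 17.3% with imatinib. The medians of these 8 genes were 0.42 with nilotinib and 0.33 with imatinib. With median centring the nilotinib median was -0.10. The ones that fell were MYC and SLC3A2, a subunit of amino acid transporters (-0.99 and -1.28). CD83, a surface molecule of activated dendritic cells and lymphocytes, rose by 1.13 and 0.98. IRF4, a transcription factor of activated lymphocytes, rose by 1.23 with nilotinib and had a difference of 0.59 with imatinib (adjusted p = 0.0592) in the gene fit. Of its 3 probe sets tested one by one, 1 was called with nilotinib and 0 with imatinib. Its means were 259 with nilotinib, 164 with imatinib and 102 with DMSO, above the brightest bacterial control on 4 of 4 arrays in each group. Of 13 C-type lectin relatives of CD69, 3 passed the filter, of which 2 rose with nilotinib and 1 with imatinib. KLRF1, a receptor of natural killer cells, averaged 503 ± 41.6 with nilotinib, 488 ± 50.9 with imatinib and 246 ± 44.8 with DMSO. CLEC1A, a lectin-like receptor, rose by 1.46 with nilotinib and had a difference of 0.32 with imatinib (adjusted p = 0.446). It was dim, with means of 230 with nilotinib, 100 with imatinib and 71.3 with DMSO. It exceeded the brightest bacterial control on 4 of 4 nilotinib, 1 of 4 imatinib and 3 of 4 DMSO arrays. That control was itself brighter with the drugs, at means of 170 with nilotinib and 106 with imatinib against 58.9 with DMSO.

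CD69 is also known from lymphocytes, and their markers moved as follows. Of 11 lymphocyte marker genes, 10 were measured and 6 passed the filter. Of these 6, 2 rose and 1 fell with nilotinib, beside 34.7% and 23.5% of all genes. With imatinib 0 rose and 1 fell, beside 22.0% and 17.3%. The signal summed over all 11 probe sets of the 10 genes, filtered or not, was 970 to 1863 on nilotinib arrays. It was 665 to 988 on imatinib arrays and 827 to 1011 on DMSO arrays. The brightest of the 10 genes on DMSO arrays was CD3D, with a mean of 282, against 193 with nilotinib and 130 with imatinib. CD79B went the other way, with 55.6, 225 and 91.2, so the sum joins opposite moves. For monocytes and granulocytes, LYZ was the only one of 7 genes to pass, and it fell with each drug. The sum over all 9 probe sets of the 7 genes was 2002 to 2627 with nilotinib, 2136 to 2847 with imatinib and 2962 to 3217 with DMSO. For fibroblasts, 2 of 6 genes passed, of which 1 rose with nilotinib and 0 with imatinib. The sums over all 16 probe sets of the 6 genes were 1251 to 1618, 740 to 1169 and 600 to 938 for nilotinib, imatinib and DMSO. The part of other cells in these results was not tested.

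**Figure D4:**
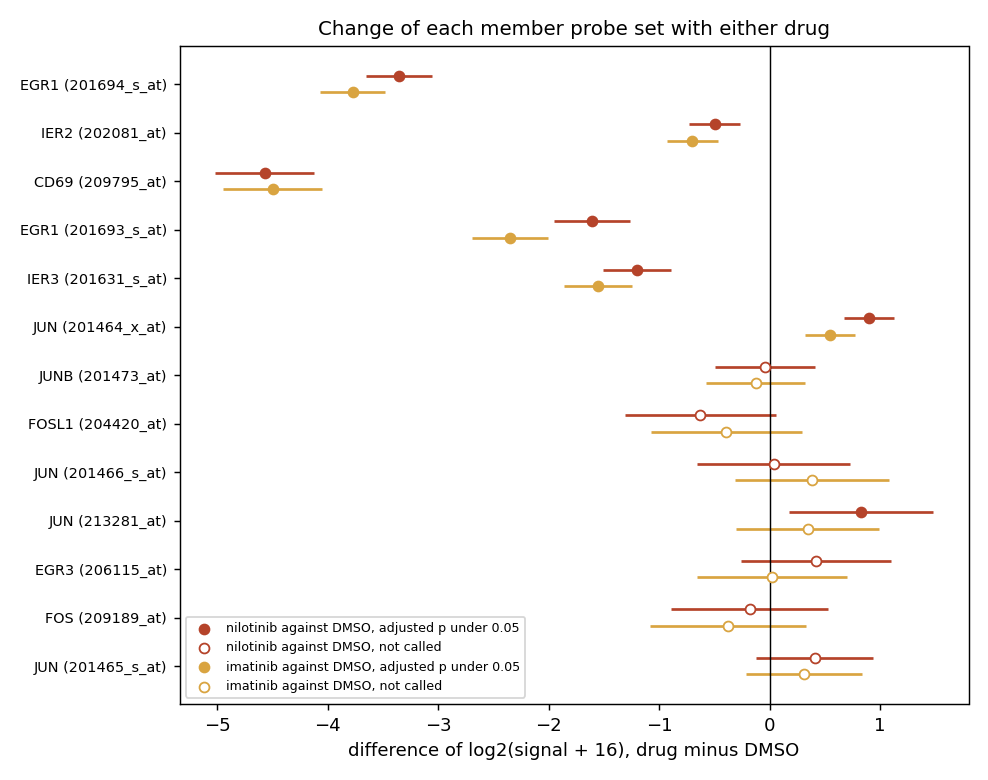
Log2 difference (axis) of each of the 13 probe sets (rows), nilotinib against DMSO and imatinib against DMSO. Bars are 95% intervals from the fit over all probe sets, and filled points have an adjusted p under 0.05. CD69 and EGR1 lie at the left, with values down to -4.57 and -3.78, and JUN 201464_x_at at the right with 0.90.

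Nilotinib and imatinib were compared at 24 h, but at different doses (0.05 and 0.5 µM), so these are values side by side at each drug's IC50 as labelled. Of 8 genes, 1 was called, JUN, which was higher with nilotinib, beside 14.0% of all genes called, 5.82% higher and 8.22% lower. Of 13 probe sets, 1 was called, 201693_s_at of EGR1, beside 6.08% of all probe sets called, 2.74% higher and 3.34% lower. Nilotinib and imatinib arrays were apart for 3 of 8 genes, beside 18.0% of all genes.

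EGR1 was higher with nilotinib than with imatinib by 0.74 ± 0.16 in probe set 201693_s_at (limma, adjusted p = 0.0124), and all 4 nilotinib arrays were above all 4 imatinib arrays. That call held under 17 of 21 alternatives and was lost with quantile normalization (0.54, adjusted p = 0.0860), median centring (0.45, adjusted p = 0.0841), only the 2 groups compared (adjusted p = 0.105) and without the arrays of high actin ratio (0.63, adjusted p = 0.103). Split by actin ratio, with 2 arrays a group, the difference was 0.85 among arrays above 3.5 and 0.63 among the others. In 201694_s_at the difference was 0.42 (95% interval 0.12 to 0.72) and just missed the threshold (adjusted p = 0.0528). JUN 201464_x_at differed by 0.35 ± 0.11 (adjusted p = 0.0426), by 0.52 among arrays of high actin ratio and by 0.18 among the others. That JUN call held under 9 of 24 alternatives, with adjusted p between 0.0343 and 0.769. IER3 differed by 0.35 (0.05 to 0.66; adjusted p = 0.107) and IER2 by 0.20 (-0.02 to 0.43; adjusted p = 0.210). CD69 differed by -0.07 (-0.50 to 0.36; adjusted p = 0.847), JUNB by 0.09 (-0.34 to 0.52), FOSL1 by -0.24 (-0.89 to 0.41) and EGR3 by 0.40 (-0.27 to 1.07). These intervals do not show that the drugs act alike.

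The genes most like EGR1 and CD69 over the 12 arrays were found by Pearson correlation of log2 signal. The arrays fall into drug and DMSO arrays, so this likeness mostly reflects that split, and it is given as a description. For EGR1 they were TRIB3 (r = 0.992), ATF4 (0.988), USP3 (0.988), SRRD (0.988) and SLC25A32 (0.986). TRIB3 averaged a signal of 584 with nilotinib, 534 with imatinib and 5413 with DMSO. For CD69 they were CARS1 (r = 0.994), WARS1 (0.992), SLC2A3 (0.992), CFLAR (0.991) and ASNS (0.990). SLC2A3 averaged a signal of 183 with nilotinib, 189 with imatinib and 2370 with DMSO. Between the members, r was 0.978 for CD69 with EGR1, 0.977 for IER3 with EGR1 and -0.84 for JUN with EGR1.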

How the data were processed

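Per the labels, total RNA from 12 K562 samples was labelled with biotin and hybridized to 1-colour arrays. The deposited intensity values are linear MAS5 signals, per the submitters' processing notes, with no MAS5 version named; their trimmed means showed that the authors had scaled the arrays to 500.1 on average. MAS5 leaves differences in background between arrays in dim probe sets. Groups were taken from titles.

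A pseudocount of 16 was added before taking log2. The array has 22277 probe sets, of which 62 controls were not fitted. Probe sets naming 1 gene (19064; 1043 named several and 2108 none) with a mean at or above the 40th percentile were kept, the brightest per gene, giving 8021 genes. A fit over all 22215 probe sets without the filter served every other probe set. Models in limma 3.58.1 (R 4.3.3) had 1 mean per group over all 12 arrays and a variance trend, with Benjamini-Hochberg adjustment over all features of a comparison. The median standard error was 0.146, and the number of arrays limits the precision. The models were tested on simulated data. For array measures, exact permutation tests were two-sided. Figures used matplotlib 3.10.9 in Python 3.11.15.

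The members and gene lists were chosen with earlier results of these data known. Named were all members, up to 4 called genes per list with the largest difference, and the 5 genes most like EGR1 and CD69. Motif names were fixed with the lists; their letters and the 4 printed promoters were settled after the promoter table was read. Alternatives were other pseudocounts, filters, scalings, probe set rules, array weights, variance models, a fit of only the 2 groups compared, no arrays of high actin ratio, and each array left out.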

Additional observations from a re-analysis of the deposited data

Results flagged for a closer look

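Of 39 sets of 4 arrays checked for a lone extreme value, 1 had one. It was JUN probe set 201465_s_at on DMSO array 12, with a signal of 12.2 and the next lowest DMSO array at 16.5. The gap divided by the range was 0.833, just over the 95% limit of Dixon's test. Chance gives such a value in about 1 of 20 sets, and this probe set lay below the brightest bacterial control on every array.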

How the results depend on the processing

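EGR1, CD69, IER3, IER2 and JUN kept their direction and their call against DMSO in all 24 alternatives of the gene fit. In 1 of these, the probe sets of a gene were averaged, so JUN was not 201464_x_at alone there. In the order EGR1, CD69, IER3, IER2 and JUN, log2 differences were -3.88 to -2.48, -5.09 to -4.01, -1.72 to -1.08, -1.02 to -0.36 and 0.38 to 0.94 for nilotinib. For imatinib they were -4.00 to -3.06, -4.73 to -3.96, -1.78 to -1.37, -0.93 to -0.55 and 0.32 to 0.59. No paired analysis was possible because the replicate numbers run from 1 to 12 and are shared by no groups. The signal over background limits FOS and JUN 201465_s_at, below the brightest bacterial control on every array. Against DMSO, EGR3, JUNB, FOS, JUN 201465_s_at and JUN 201466_s_at each changed sign under at least 1 alternative with 1 drug or both, and the cause was not tested. With 1 array left out, the medians of the other immediate early genes ran from -0.035 to 0.11 with nilotinib and -0.047 to 0.21 with imatinib, and that of the SRF list from -0.12 to 0.17 with imatinib. The 60th percentile filter left 5 members, without FOSL1, EGR3 and JUNB.

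Genes called between nilotinib and imatinib numbered 1126, against 2722 with median centring, 416 without the arrays of high actin ratio, and 692 to 1051 with 1 array left out, lowest without imatinib array 6. The 1 member gene called between the drugs became 0 with no filter, quantile normalization, median centring, cyclic loess, no variance trend, array weights, only the 2 groups compared and without the arrays of high actin ratio, 2 with the 60th percentile filter, and 0 to 1 with 1 array left out. The 1 member probe set called became 0 with quantile normalization, median centring, only the 2 groups compared and without the arrays of high actin ratio. With median centring, 831 genes were called higher and 3947 lower with nilotinib against DMSO, and 820 and 2276 with imatinib, against 2781 and 1885, and 1767 and 1390, in the values reported. Between the drugs the split became 76 higher and 2646 lower, against 467 and 659. The causes were not tested.

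None of the values that changed sign had passed its test. With quantile normalization, median centring and cyclic loess in that order, EGR3 was -0.16, -0.10 and -0.19 with nilotinib and -0.21, -0.20 and -0.25 with imatinib against DMSO. In the same order with nilotinib against DMSO, JUN 201465_s_at was -0.13, -0.12 and -0.13, and JUN 201466_s_at -0.51, -0.49 and -0.53. Between nilotinib and imatinib, FOS was -0.11, -0.10 and -0.16, JUN 201465_s_at -0.21, -0.20 and -0.26, JUNB -0.15, -0.21 and -0.11, and IER2 -0.094 with median centring. Without the arrays of high actin ratio, imatinib against DMSO gave 0.076 for FOS and 0.065 for JUNB, and nilotinib against imatinib gave -0.33 for FOS, 0.043 for JUN 201466_s_at, 0.11 for FOSL1, -0.10 for JUNB and 0.14 for CD69. With array weights, CD69 between the drugs was 0.0073. With 1 array left out, the ranges that crossed 0 were -0.19 to 0.10 for JUNB and -0.21 to 0.27 for JUN 201466_s_at with nilotinib against DMSO, -0.28 to 0.011 for JUNB and -0.15 to 0.17 for EGR3 with imatinib against DMSO, and -0.22 to 0.13 for CD69 and -0.42 to 0.0096 for FOSL1 between the drugs.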

Other observations

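AU-rich elements in the messages of immediate early genes bind proteins that speed their decay. Of 16 tested genes for the decay of AU-rich mRNAs, 5 rose and 5 fell with nilotinib, and 6 rose and 2 fell with imatinib. The shares of all genes were 34.7% higher and 23.5% lower with nilotinib, and 22.0% and 17.3% with imatinib. The median log2 differences of the 16 genes were 0.05 with nilotinib and 0.06 with imatinib. With median centring these medians were -0.47 and -0.16. TIA1, which binds AU-rich messages and holds back their translation, averaged a signal of 1919 ± 222 with nilotinib, 1564 ± 71.0 with imatinib and 949 ± 77.6 with DMSO (SD, n = 4 each). All 5 of its probe sets rose with nilotinib and 4 of 5 with imatinib. ZFP36L2, a zinc finger protein that recruits decay enzymes, rose by 0.67 and 0.46 on the log2 scale in the gene fit, with 2 of its 3 probe sets called with nilotinib and 1 with imatinib. ZFP36L1, its relative, rose by 0.70 and 0.32 in the gene fit, in 2 of 4 probe sets with nilotinib and 0 of 4 with imatinib. CNOT3, a subunit of the deadenylase complex, rose by 0.95 and 0.51 in the gene fit, in 1 of 2 probe sets with nilotinib and 0 of 2 with imatinib.

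Of 10 tested housekeeping genes, 3 fell and 1 rose with nilotinib, and 1 fell and 1 rose with imatinib, with medians of -0.11 and -0.03, and of -0.64 and -0.25 with median centring. GAPDH, a glycolytic enzyme, averaged 12478 ± 1601 with nilotinib, 15439 ± 732 with imatinib and 16700 ± 987 with DMSO, and fell by 0.43 with nilotinib (limma, adjusted p = 0.000138). PGK1, another glycolytic enzyme, fell by 0.50 with nilotinib and 0.18 with imatinib. HPRT1, of purine salvage, fell by 0.30 with nilotinib and had a difference of 0.02 with imatinib (adjusted p = 0.898), and GUSB, a lysosomal enzyme, rose by 0.20 and 0.31.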
